A study of Mus musculus with 3 samples.

Results

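Collagens are secreted or membrane proteins of 3 chains wound in a triple helix. The mouse genes for their chains carry symbols of the form Col, a type number, the letter a and a chain number. All symbols of that form among the genes measured were taken, which gave 44 collagen genes of 32285. Their levels were read in 3 droplet libraries of single cells from mouse back skin, aged postnatal day 38 (P38), 6 months and 12 months, with 1 library at each age. The labels call all 3 groups wildtype and untreated, and name no strain. The study's methods describe Krt14-H2B-GFP mice, in which the keratinocyte promoter Krt14 drives a nuclear green fluorescent protein, and cells sorted for that label, most strictly at P38, while the labels speak of dissociated back skin as a whole, so how far the sort removed dermal cells differs between libraries. The same source gives the P38 animals as male and in catagen (regression of the follicle), the 6 months animals as female and mostly in anagen (growth), and the 12 months animals as male with mixed telogen (rest) and anagen. Age therefore cannot be told apart from hair cycle stage, sort and library in any comparison of ages, nor from sex where 6 months is compared.

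In skin, dermal fibroblasts make most of the fibrillar collagens, the types I, III and V that bear load. Beneath the epidermis and around each follicle lies a basement membrane, a sheet of type IV collagen and laminin to which basal keratinocytes attach. They attach through hemidesmosomes, whose transmembrane collagen is type XVII, while anchoring fibrils of type VII collagen tie the sheet to the dermis. Type VI collagen forms beaded microfibrils, types XII, XIV and XVI sit on fibrils, and types XV and XVIII carry heparan sulphate or chondroitin sulphate chains at basement membranes. The bulge holds the hair follicle stem cells (HF-SC), the hair germ (HG) below it is their activated progeny, and the dermal papilla (DP) is the mesenchymal signalling centre beneath.

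A filter on detected genes (above 200, below 5000) and on mitochondrial UMIs (below 15%) left 2109, 3502 and 3240 cells in order of age from 2397, 4761 and 5421 barcodes. The kept cells held 34646663, 24698719 and 38910431 UMIs (unique molecular identifiers, each 1 captured transcript), and the median cell had 16170, 1019 and 11438.5 UMIs. The median kept cell of the 6 months library was thus much shallower, though this did not hold in every class. The filter also removed more UMIs from that library, 24023319 in 1259 barcodes. It removed 5862627 in 288 barcodes at P38 and 9976692 in 2181 at 12 months. Under the same limits the study's methods give fewer kept cells at 6 months. The 6 months and 12 months libraries shared 136 barcodes, against 5 and 2 for the pairs with P38, and every count below was also taken without shared barcodes. Each cell was placed in 1 of 18 classes by fixed marker genes that include no collagen, which placed 72.3%, 54.9% and 69.5% of the kept cells. A class is called after its markers, such as Fibroblast-like for Dcn, Lum and Pdgfra, and interfollicular epidermis (IFE) basal-like for Krt14, Krt5 and Wnt16. No class of those described had more markers of another class than of its own among its 10 most enriched genes. The gate used these same markers, so that count could not test the class names.

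Levels are given as CPM, the UMIs of a gene relative to all UMIs of a class in a library, with 20 cells as the minimum for a comparison. The assay tags the 3′ end, so CPM does not scale with transcript length. No Fibroblast-like or DP-like cell was found at P38, and the Fibroblast-like class had 91 cells at 6 months and 197 at 12 months. The DP-like class had 14 cells at 6 months, under the minimum, and 189 at 12 months. The IFE basal-like class had 329, 121 and 677 cells in order of age and the HF-SC-like class 343, 118 and 129. At 6 and 12 months the median UMIs were 14916 and 13020 in IFE basal-like and 9851 and 7311 in HF-SC-like cells. HG-like cells had 13053.5 and 11249, Fibroblast-like cells 8585 and 10456, and IFE suprabasal-like cells 628 and 16480. Cells close to the limit of the gate, with exactly 3 markers detected, made up 5 of 91 and 12 of 197 Fibroblast-like cells and 32 of 189 DP-like cells. A further 19, 2 and 18 cells with 2 markers stayed outside these classes.

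Of the 44 collagens, 43 had at least 1 UMI in a class of 20 or more cells, and 1, Col6a5, was at 0. The level of 10 UMIs and 10 CPM was reached somewhere by 27 of them, by 23 in the Fibroblast-like or DP-like class and by 23 in an epithelial class of any age. At P38, where no fibroblast was found, 17 collagens reached it in epithelial classes. The genes with the widest reach were Col17a1, in 30 combinations of class and library, and Col18a1, in 24.

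**Figure D1:**
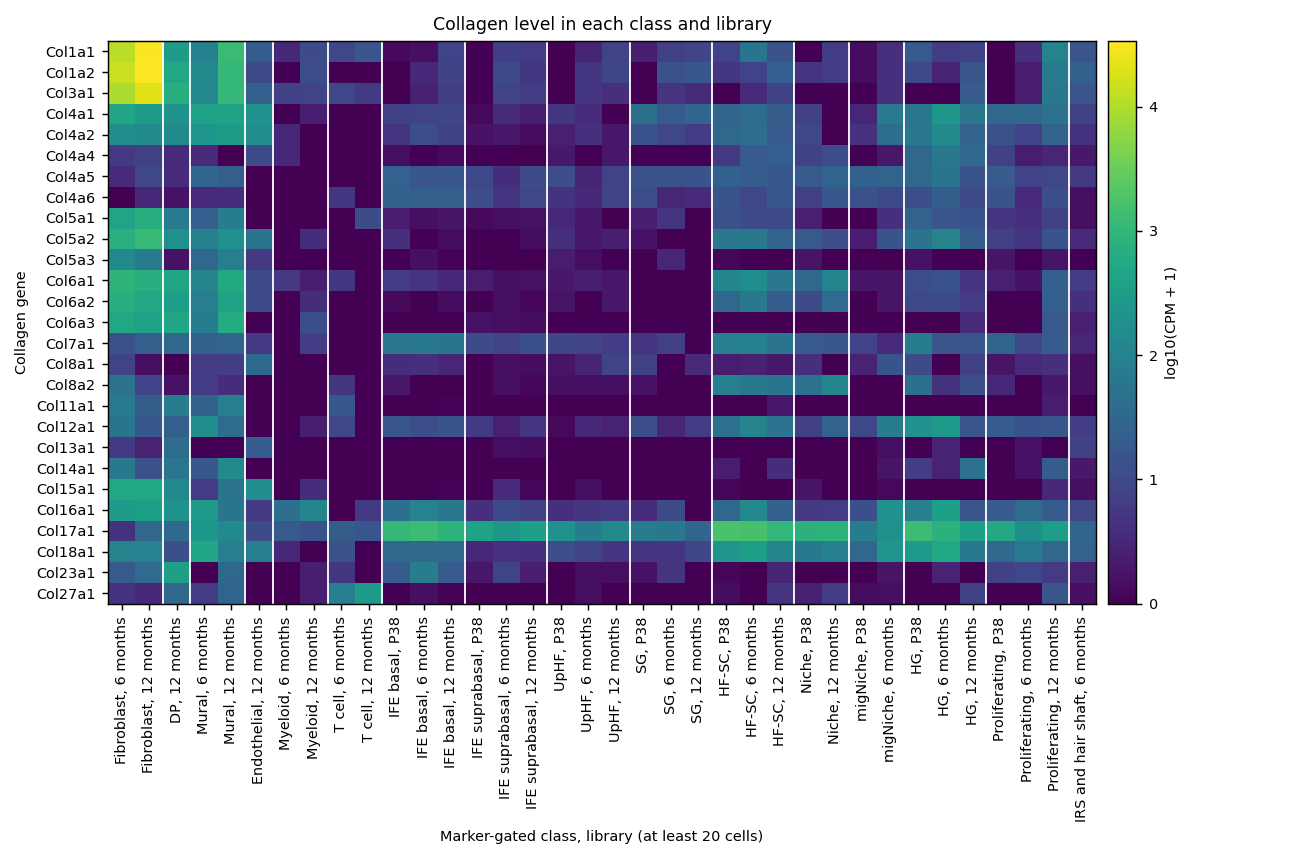
Level of the 27 collagens that reached 10 UMIs and 10 CPM, as log10(CPM + 1) on a colour scale, in each marker-gated class and library of at least 20 cells. Type I and III chains are brightest in the Fibroblast-like columns and Col17a1 in the IFE basal, HF-SC and HG columns.

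The start regions of 3 collagens are shown because the genes were highest in different classes: Col17a1 in follicle stem cells, Col1a2 in fibroblasts and Col4a4 in the hair germ. Each is 300 bases from RefSeq on GRCm38.p6, the build called mm10 that the files use, from 250 bases before the start of the gene to 50 after it. Capitals mark the GC box GGGCGG, the CCAAT box CCAAT and the TATA box TATAAA, searched on both strands. Col17a1 lies at chr19:47691993-47692292 on the minus strand, Col1a2 at chr6:4505368-4505667 on the plus strand and Col4a4 at chr1:82586800-82587099 on the minus strand.
Col17a1: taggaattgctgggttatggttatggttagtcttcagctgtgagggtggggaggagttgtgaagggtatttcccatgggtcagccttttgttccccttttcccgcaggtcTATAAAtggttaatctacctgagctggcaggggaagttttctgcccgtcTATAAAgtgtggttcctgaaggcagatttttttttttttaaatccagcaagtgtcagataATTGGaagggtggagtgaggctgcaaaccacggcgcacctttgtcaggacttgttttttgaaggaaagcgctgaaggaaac
Col1a2: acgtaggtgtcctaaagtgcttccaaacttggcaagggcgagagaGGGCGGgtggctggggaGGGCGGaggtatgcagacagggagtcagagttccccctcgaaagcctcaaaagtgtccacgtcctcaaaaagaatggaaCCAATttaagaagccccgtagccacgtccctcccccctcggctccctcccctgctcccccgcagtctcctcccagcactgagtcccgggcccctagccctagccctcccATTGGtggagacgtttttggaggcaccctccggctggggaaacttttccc
Col4a4: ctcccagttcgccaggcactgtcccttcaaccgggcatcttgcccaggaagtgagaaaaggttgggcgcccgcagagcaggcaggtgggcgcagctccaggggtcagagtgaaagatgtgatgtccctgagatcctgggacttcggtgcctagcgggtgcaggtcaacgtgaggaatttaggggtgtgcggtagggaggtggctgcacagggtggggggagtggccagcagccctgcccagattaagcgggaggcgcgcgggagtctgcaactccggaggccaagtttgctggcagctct
The Col17a1 window held 2 TATA boxes and 1 CCAAT box, the Col1a2 window 2 GC boxes and 2 CCAAT boxes, and the Col4a4 window none of the motifs. Over 38 windows of 35 collagen genes, 60.5% held a GC box against 35.7% of all 32851 windows. The CCAAT box was in 34.2% against 37.4%, the TATA box in 13.2% against 13.6%, and the AP-1 element TGANTCA in 2.63% against 7.81%. A match describes these letters only.

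Fibroblast-like cells gave 4.08% of their UMIs to collagens at 6 months and 9.18% at 12 months. Types I and III made up 87.0% and 94.5% of that. IFE basal-like cells gave 0.132%, 0.163% and 0.111% in order of age, and T cell-like cells, which should make little collagen, 0.0185% and 0.0346% at 6 and 12 months. Col27a1 alone gave 22 of the 45 T cell-like collagen UMIs at 6 months and 61 of 71 at 12 months. The T cell-like share is therefore not a background level for the family. Single Fibroblast-like cells varied widely, from 0.195% to 19.4% with a median of 3.18% at 6 months, and from 0.175% to 29.9% with a median of 7.24% at 12 months.

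The most abundant collagen of Fibroblast-like cells was Col1a2, the α2 chain of type I, at 14591 CPM at 6 months and 33980 at 12 months. Col1a1, the α1 chain, stood at 11599 and 31563, so that 0.795 and 0.929 Col1a1 UMIs were counted per Col1a2 UMI. Col3a1, the chain of type III, was at 9363 and 21232. These 3 genes stood far above every other collagen in the class. Of type V, which joins type I in fibrils and limits their width, Col5a2 was at 749 and 1115 and Col5a1 at 444 and 679. The 3 type VI chains were at 892 and 696 for Col6a1, 699 and 522 for Col6a2, and 509 and 384 for Col6a3. Col15a1, a proteoglycan of the zone next to basement membranes, was at 500 and 492, and Col4a1, of the basement membrane itself, at 460 and 288. Col16a1, a fibril-associated collagen, was at 310 and 362.

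**Figure D2:**
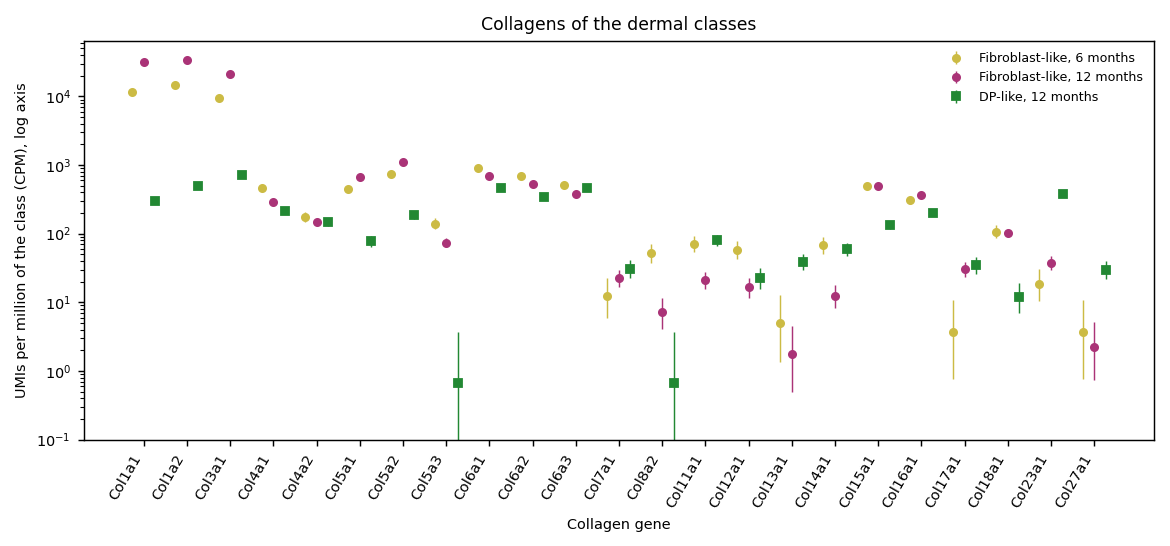
Collagens with at least 10 UMIs and 10 CPM in Fibroblast-like or DP-like cells, as CPM on a log axis with exact 95% Poisson intervals that cover counting error only. Col1a2, Col1a1 and Col3a1 sit at the top in both Fibroblast-like libraries and lower in DP-like cells, while Col23a1 and Col13a1 are higher in DP-like cells.

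Fibroblast-like cells were compared with IFE basal-like cells by edgeR's quasi-likelihood test on the UMI sums of 36 combinations of class and library, with library as a block. Only 29 of the 44 collagens passed its filter on low counts, and 14122 genes were tested. Higher in Fibroblast-like cells at an adjusted p under 0.05 were 20 collagens, where 20.6% of all genes were called in that direction. Lower were 4, beside 13.7% of all genes. Since a gene could pass the filter through its level in fibroblasts, the count describes the genes tested and not the family. The median fitted log2 fold change was 4.91 over the 29 collagens and -0.01 over all genes tested. With the 4 collagens that had no UMI in IFE basal-like cells of the 6 and 12 months libraries at their bound from 3 UMIs, and 1 without a fold left out, the median over the collagens was 4.40.

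By group, 8 of 8 fibrillar chains tested rose, 3 of 3 type VI chains and both multiplexins. Among the fibrillar chains Col27a1 had few counts. Fibroblast-like cells held 3 and 5 of its UMIs at 6 and 12 months, and IFE basal-like cells 1 and 1. Col1a2 rose by 12.71 ± 1.19 (log2, SE), Col1a1 by 12.49 ± 1.28, Col3a1 by 11.97 ± 1.14 and Col5a1 by 9.27 ± 0.624, with edgeR adjusted p-values of 9.55e-09, 2.88e-08, 2.12e-07 and 6.08e-11. Of the other fibrillar chains Col5a3 (9.35), Col5a2 (9.30) and Col11a1 (8.03) rose most. Col15a1 rose by 11.75 ± 0.935, Col6a2 by 10.49 ± 1.01 and Col6a1 by 7.61 ± 0.806. Col6a3, Col14a1, Col8a2 and Col13a1 had no UMI in IFE basal-like cells of the 6 and 12 months libraries, so their fold is only a bound. With 3 UMIs in place of each 0, Col6a3 was higher by at least 8.26 and 10.19 on the log2 scale at 6 and 12 months. The bounds were 5.35 and 5.25 for Col14a1 and 4.96 and 4.44 for Col8a2. Col13a1, with 4 UMIs in each Fibroblast-like sum, was higher by at least 1.57 and 2.44. The type IV chains split. Col4a1 rose by 5.32 ± 0.736, Col4a2 by 4.35 ± 0.623 and Col4a4 by 3.75 ± 0.917, while Col4a5 and Col4a6 fell. The Col4a4 counts were low, at 4 and 15 UMIs in Fibroblast-like cells at 6 and 12 months against 0 and 3. Among the 20, the calls of Col16a1 (2.11), Col18a1 (1.53) and Col27a1 (3.65) were lost without the P38 library, at 2.07, 1.48 and 3.56, and again without the 12 months library, at 1.09, 0.99 and 3.55. The call of Col4a4 was also lost without 12 months (3.08), and Col13a1 did not pass the filter on low counts there. Without 6 months the call of Col13a1 was lost. In both cases 1 Fibroblast-like sum is left and is assumed to vary like the other classes. DESeq2 gave 16 higher and did not call Col6a3, Col11a1, Col13a1 or Col14a1, and without library as a block Col16a1, Col18a1 and Col27a1 were not called.

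The 4 collagens lower in Fibroblast-like cells were 13.8% of those tested, near the share among all genes. Col17a1, the hemidesmosomal collagen, had a log2 fold change of -5.57 ± 0.655 (edgeR adjusted p = 2.51e-07), with 3.69 and 30.4 CPM in Fibroblast-like cells against 1256 and 840 in IFE basal-like cells of the same libraries. Col4a6 (-3.90) and Col4a5 (-1.48) form a type IV network of epithelia, and Col7a1 (-1.64) is the anchoring fibril. Without the 6 months library Col7a1 stood at -1.20 and without the 12 months library at -2.28, and neither passed. Col4a5 did not pass when any 1 of the libraries was left out, at -1.49, -1.09 and -2.86 without P38, 6 months and 12 months, nor by DESeq2 (-1.43). Fibroblast-like cells at 6 and 12 months held a median of 44.8 and 63.4 UMIs of IFE basal markers per 10000, and the part of epithelial RNA in their Col17a1 was not tested.

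The ages of the Fibroblast-like class were 1 library each, so the following are ratios with counting intervals and no test. Of 22 collagens with at least 20 UMIs together, 6 were past 2-fold higher at 12 months, beside 7.26% of 8959 genes, and 4 past 2-fold lower, beside 11.6%. The 3 most abundant were among the first: Col1a1 had a log2 ratio of 1.44 (95% interval 1.41 to 1.48), Col1a2 of 1.22 (1.19 to 1.25) and Col3a1 of 1.18. Col5a1 at 0.61 and Col5a2 at 0.57 stayed under 2-fold, and Col15a1 stood at -0.02 (-0.19 to 0.15). The other 3 that were higher had low counts: Col17a1 (3 and 68 UMIs), Col4a5 (2 and 18) and Col23a1 (15 and 84). Of the 68 Col17a1 UMIs at 12 months, 27.9% came from 1 cell, and 17 of 197 cells held any.

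Lower at 12 months were Col8a2, a short-chain network collagen, from 51.7 to 7.15 CPM (log2 ratio -2.85), Col14a1 from 67.7 to 12.5 (-2.43), Col12a1 from 57.8 to 16.5 (-1.81) and Col11a1 from 71.4 to 21.0 (-1.76). Of these, Col12a1 and Col14a1 bind to the surface of fibrils and Col11a1 is a minor fibrillar chain. Few cells carried Col12a1: 13 of 91 held its 47 UMIs at 6 months and 16 of 197 its 37 UMIs at 12 months, and the richest cell gave 29.8% and 29.7% of them. Col14a1 was as sparse, with 55 UMIs in 13 of 91 cells and 28 in 15 of 197. The richest cell gave 29.1% and 21.4% of the Col14a1 UMIs. The median over all genes was -0.20, or -0.12 when collagen UMIs were left out of the totals and 0.01 with median-of-ratios scaling, and the ratios of Col1a1, Col1a2 and Col3a1 stayed past 2-fold under each scaling tried.

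The DP-like class of 12 months gave 0.444% of its UMIs to collagens, and types I and III made up 34.0% of that. The order of its collagens was unlike that of fibroblasts. Col3a1 led with 712 CPM, then Col1a2 with 493, Col6a3 with 469 and Col6a1 with 458. Col23a1, a transmembrane collagen, followed at 382 CPM, where Fibroblast-like cells of the same library had 37.6. Col6a2 was at 343, Col1a1 at 302, Col4a1 at 213, Col16a1 at 201 and Col5a2 at 185. Col23a1 was carried by 159 of 189 DP-like cells and by 41 of 197 Fibroblast-like cells, and with every cell thinned to 3000 UMIs by 59.5% (52.0% to 66.6%, exact binomial) and 9.38%, with 0 of 38 T cell-like cells, which allows a share of up to 9.25%.

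Against Fibroblast-like cells of the same library, 5 of 23 collagens were past 2-fold higher in DP-like cells, beside 20.1% of 9713 genes, and 9 past 2-fold lower, beside 11.8%. The share that was higher was therefore near that of all genes. Those higher were Col13a1, another transmembrane collagen (39.0 against 1.79 CPM, log2 ratio 4.44, interval 3.01 to 6.37), Col27a1 (3.73), Col23a1 (3.34, 3.01 to 3.69), Col14a1 (2.25) and Col11a1 (1.93). The lowest were Col5a3 (-6.80, from 1 and 165 UMIs), Col1a1 (-6.71), Col1a2 (-6.11) and Col3a1 (-4.90). Col5a1, Col18a1, Col5a2, Col15a1 and Col4a5 lay between -3.14 and -1.61. The type VI chains were within 2-fold, with Col6a3 at 0.29, Col6a1 at -0.60 and Col6a2 at -0.60, and Col4a2 at -0.01 (-0.26 to 0.24). The median over all genes was 0.36, and -0.05 with median-of-ratios scaling, under which 5 collagens were past 2-fold higher and 12 lower.

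**Figure D3:**
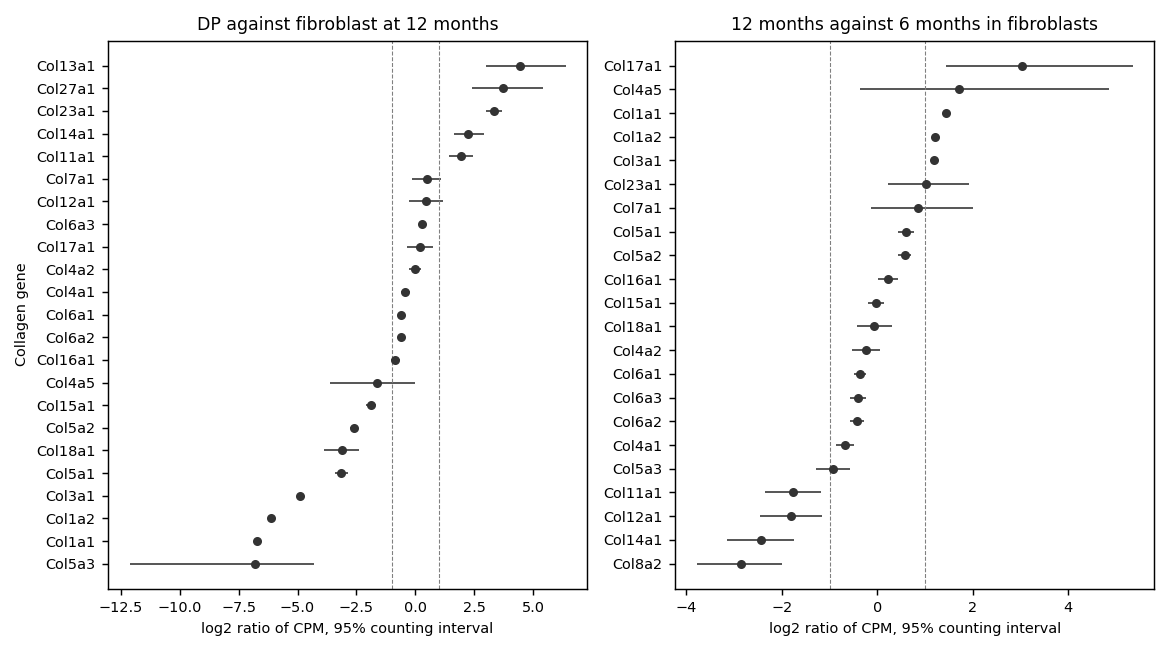
Log2 ratios of CPM for collagens with at least 20 UMIs in the 2 groups together, DP-like over Fibroblast-like cells at 12 months (left) and Fibroblast-like cells at 12 months over 6 months (right). Points are ratios of 1 library each and bars the 95% counting interval, with dashed lines at 2-fold: Col13a1, Col27a1 and Col23a1 stand at the top left, Col1a1 and Col1a2 near the bottom left and above the line on the right.

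The 14 DP-like cells of 6 months are given as values only. Col3a1 was at 1797 CPM, Col1a2 at 722, Col23a1 at 713 (77 UMIs), Col1a1 at 658, Col4a1 at 648 and Col13a1 at 204. Col23a1 and Col13a1 stood above the Fibroblast-like class of the same library there too, which had 18.5 and 4.92 CPM. DP-like cells at 12 months held a median of 2.75 UMIs of fibroblast markers per 10000, Fibroblast-like cells 259.8, and the part of fibroblast RNA in the DP-like type I and III levels was not tested. DP-like cells also held 23.9 UMIs of IFE basal markers against 23.5 of their own, and 10 of 189 cells held all 53 of their Col17a1 UMIs.

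Type XVII collagen was the main collagen of the epithelium. In IFE basal-like cells Col17a1 stood at 1061, 1256 and 840 CPM in order of age. The HF-SC-like class had 1707, 1645 and 1006. HG-like cells had 1283, 831 and 378, and Niche-like cells, the inner bulge layer, 826 at P38 and 841 at 12 months. In the 3 libraries the class with the highest Col17a1 was HF-SC-like. After thinning to 3000 UMIs, 92.0%, 98.3% and 87.7% of IFE basal-like cells held a Col17a1 UMI, against 0% and 5.26% of T cell-like cells at 6 and 12 months, whose median depths were 4322.5 and 4441 UMIs before thinning. The difference between HF-SC-like and IFE basal-like cells in Col17a1 did not pass the test (log2 fold change 0.24 ± 0.433, edgeR adjusted p = 0.825).

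Leaving the basal layer, 7 of the 29 collagens fell in IFE suprabasal-like cells, beside 5.49% of all genes, and none rose, beside 6.55%. With none called higher, 0 collagens had a positive change at an unadjusted p under 0.05, and DESeq2 called 0. Those that fell were Col23a1 (-3.59 ± 0.642), Col18a1 (-3.43 ± 0.587), Col16a1 (-3.35 ± 0.692), Col4a2 (-3.25 ± 0.886), Col7a1 (-2.60 ± 0.440), Col4a6 (-1.56 ± 0.424) and Col17a1 (-1.55 ± 0.444). By group these were 2 of 6 basement membrane chains, 2 of 3 transmembrane collagens tested, 1 of 4 fibril-associated ones, 1 of 2 multiplexins and the anchoring fibril chain. Col17a1 was at 404, 253 and 360 CPM in the suprabasal class, so it was lower in each library but still its most abundant collagen. Its call was lost without the P38 library (-1.61), as was that of Col4a6 (-1.77). Without the 12 months library Col4a6 (-1.65) and Col4a2 (-2.81) did not pass. The 6 months suprabasal class had a median of only 628 UMIs per cell, and without that sum and 2 others of low depth Col17a1 stood at -1.49 and did not pass, while the other 6 did. Without library as a block Col17a1 (-1.54) and Col4a6 (-1.49) were not called.

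**Figure D4:**
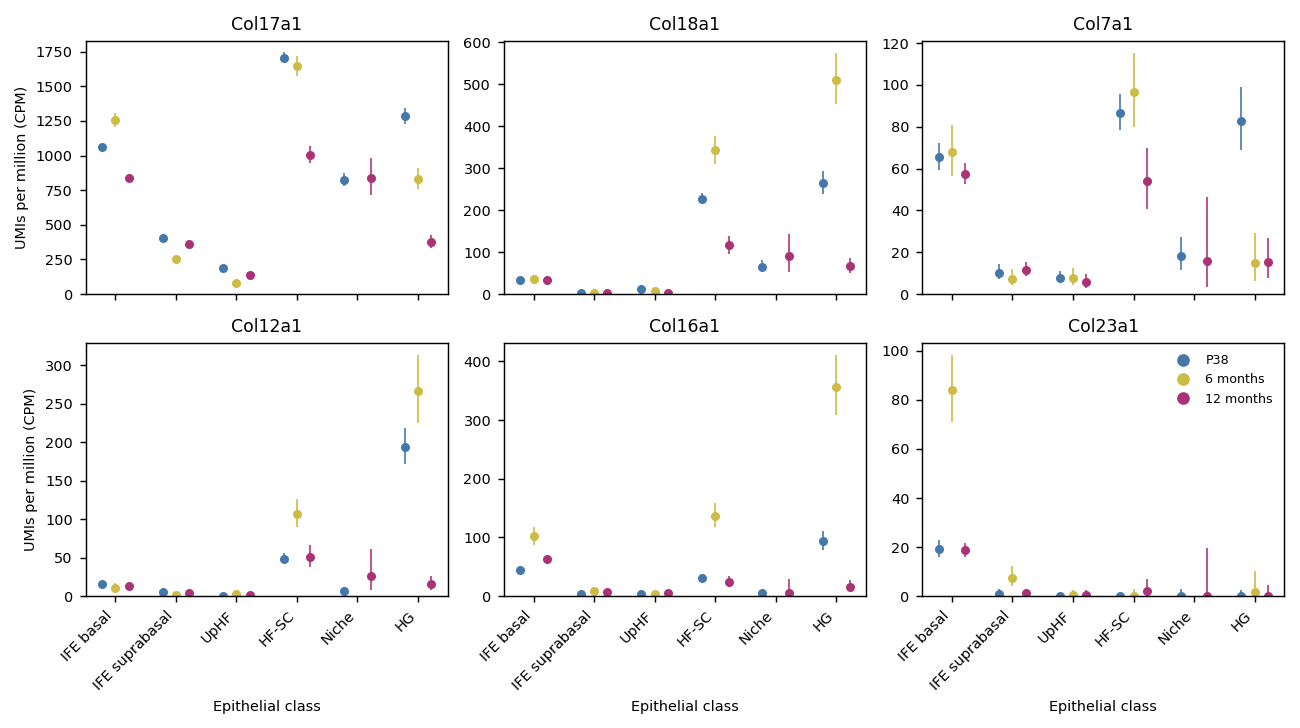
CPM of 6 collagens in epithelial classes of at least 20 cells, 1 point per library with its exact 95% Poisson interval, on linear axes from 0. Col17a1 is high in IFE basal, HF-SC, Niche and HG classes and lower in suprabasal and upper follicle (UpHF) classes, Col12a1 and Col18a1 are highest in HG at P38 and 6 months, and Col23a1 is near 0 in the follicle classes.

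Follicle stem cells carried a broader set than the interfollicular basal layer, with 14, 14 and 17 collagens at 10 UMIs and 10 CPM against 8, 9 and 8. The HF-SC-like class gave 0.254%, 0.289% and 0.158% of its UMIs to collagens. Called higher than in IFE basal-like cells were 11 of 29 collagens, beside 7.97% of all genes, and 1 was lower, beside 5.96%. The median log2 fold change was 1.91 over these collagens and -0.01 over all genes. It was also 1.91 with 1 collagen at its bound and 2 without a fold left out. A gene could pass the filter through its level in HF-SC-like cells or in another class. Counts here and in the other tests therefore describe the genes tested and not the family. The largest change was that of Col8a2, at 91.5, 65.7 and 56.8 CPM, where IFE basal-like cells had 0.949, 0 and 0 (7.27 ± 0.773, edgeR adjusted p = 5.59e-07). Type VI followed, with Col6a1 at 118, 161 and 62.5 CPM against 5.38, 3.87 and 2.31 (4.76 ± 0.708) and Col6a2 at 30.6, 63.2 and 20.8 (6.67 ± 0.967). The third chain of type VI, Col6a3, had no UMI there in any library, which allows up to 0.625, 2.43 and 2.84 CPM. Fibroblast-like cells held all 3 chains at 384 CPM or more.

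Of the 3 type V chains, Col5a2 and Col5a1 were called higher and Col5a3 did not pass. Col5a2 was at 62.7, 64.1 and 26.5 CPM (4.87 ± 0.741) and Col5a1 at 12.5, 9.73 and 10.4 (3.37 ± 0.608). Col18a1, whose C-terminal part is known as endostatin, was at 228, 342 and 116 CPM against 34.3, 35.3 and 32.7 (2.34 ± 0.487). Col4a4 (4.80 ± 0.782), Col4a3 (3.75 ± 1.18) and Col4a2 (2.01 ± 0.579) were the type IV chains called, and Col12a1 the fibril-associated one, at 48.8, 107 and 51.1 against 15.3, 11.0 and 13.4 (1.91 ± 0.622). The calls of Col12a1 and Col4a3 were lost whichever library was left out, at 1.52 to 2.18 and 3.51 to 4.46, and that of Col4a2 without P38 (1.46). Without library as a block, 7 collagens were called higher, and Col4a3, Col4a2, Col12a1 and Col1a1 were not among them.

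Col1a1 was also called, at 7.29, 57.6 and 13.3 CPM against 0.316, 0.552 and 7.03 (3.68 ± 1.04, edgeR adjusted p = 0.0163). This rested on the 6 months library: without it the log2 fold change was 2.05 with an edgeR adjusted p of 0.279, where the alternatives ranged from 0.000998 to 0.279. At 6 months 19 of 118 cells held the 71 UMIs, and 1 cell gave 17 of them. Col1a2 in the same cells was at 7.30 CPM (9 UMIs), so that 7.89 Col1a1 UMIs were counted per Col1a2 UMI, against 0.795 in Fibroblast-like cells of that library, and Col3a1 had 3 UMIs. The HF-SC-like class held a median of 0.606, 0 and 1.38 UMIs of fibroblast markers per 10000 in order of age, and the part of fibroblast RNA in this result was not tested.

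The single collagen lower in HF-SC-like cells was Col23a1. It had 19.3, 84.0 and 18.7 CPM in IFE basal-like cells (122, 152 and 170 UMIs) against 0.208, 0 and 1.89 (1, 0 and 2 UMIs), a log2 fold change of -6.01 ± 0.881 (edgeR adjusted p = 2.37e-05). The call held whichever library was left out. In HG-like and Niche-like cells of 20 or more it had at most 1 UMI in a library. Within the interfollicular epidermis it was high in the basal and low in the suprabasal class, and after thinning 5.52%, 24.6% and 5.03% of IFE basal-like cells held a UMI.

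**Figure D5:**
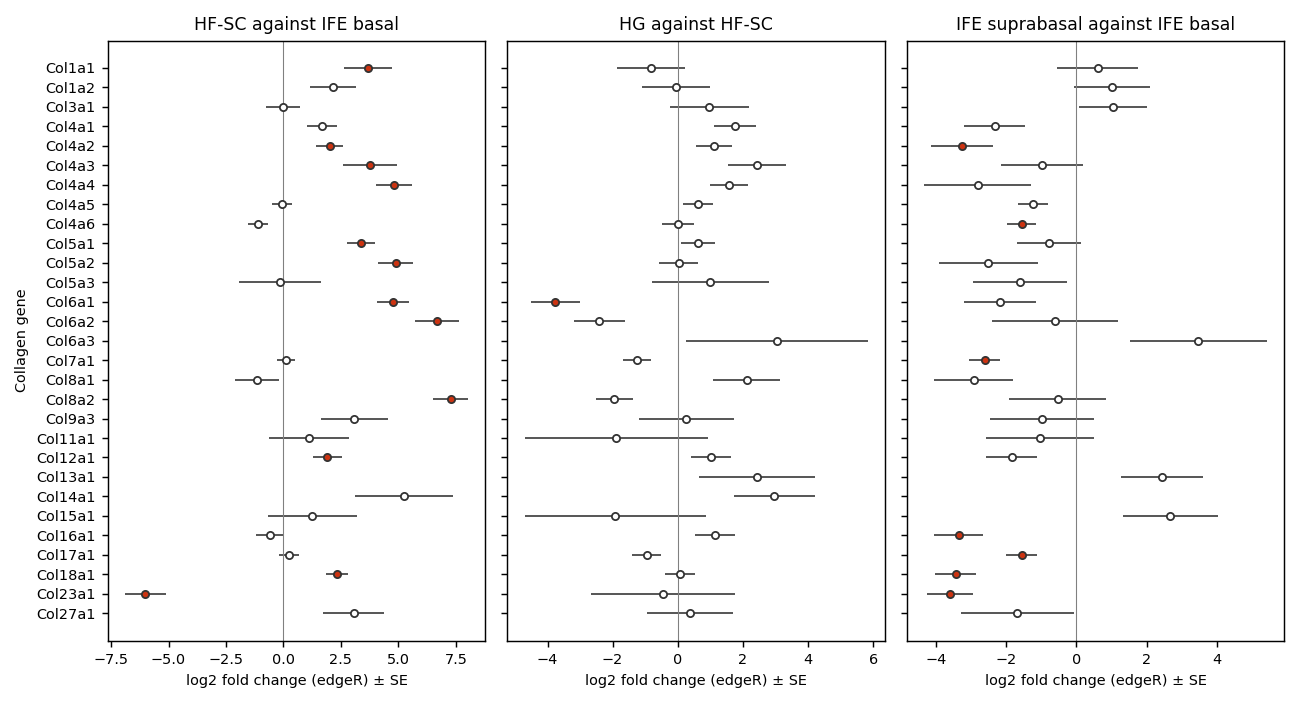
Fitted log2 fold changes of the 29 tested collagens between epithelial classes, with bars of 1 SE and red points for an adjusted p under 0.05. Values with an SE over 3 are not drawn: 11 red points lie to the right and Col23a1 to the left in the first panel, only Col6a1 is red in the second, and 7 are red to the left in the third.

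Within the follicle, few collagens were called between neighbouring classes. Against HF-SC-like cells, 1 of 29 was lower in HG-like cells, beside 0.12% of all genes, and none was higher, beside 0.12%. Unadjusted p-values under 0.05 were found for 4 higher and 5 lower, and DESeq2 called 0 higher and 1 lower. The one called was Col6a1, at 11.1, 13.0 and 3.83 CPM in HG-like cells (16, 7 and 3 UMIs) against 118, 161 and 62.5 (-3.76 ± 0.744, edgeR adjusted p = 0.0267). It did not pass without the P38 library (-3.94), without the 6 months library (-3.58) or without library as a block (-3.69). Col6a2 (-2.41) and Col8a2 (-1.95) had the same sign in all 3 libraries and did not pass.

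HG-like cells had the highest level of several collagens among the classes of a library, as levels with no test. Col12a1 stood at 194 and 267 CPM at P38 and 6 months and 15.3 at 12 months, where HF-SC-like cells had 51.1. Col18a1 was at 265, 511 and 66.4, and Col16a1 at 94.0, 357 and 15.3. All 3 had their lowest level at 12 months, where the class also held fewer UMIs of its own markers, a median of 11.1 per 10000 against 18.6 and 21.5. Col4a4 was highest in HG-like cells at all ages, at 33.2, 64.8 and 34.5 CPM, and so was Col4a3 at 8.29, 14.8 and 8.94. Col14a1 had 49.8 CPM in HG-like cells at 12 months from 11 of 63 cells, and 5.53 and 1.85 at P38 and 6 months.

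Niche-like cells could be compared at P38 (105 cells) and 12 months (27 cells), and 0 collagens were called higher or lower than in HF-SC-like cells, beside 0.198% and 0.0425% of all genes. At an unadjusted p under 0.05 there were 1 higher and 5 lower, and DESeq2 called 0 higher and 1 lower. The largest difference by p was Col7a1 (-2.44 ± 0.616, edgeR adjusted p = 0.121), at 18.4 CPM against 86.7 at P38. Col8a2 was at 49.0 and 116 CPM against 91.5 and 56.8 (0.09 ± 0.669). Niche-like cells also held a median of 118.6 and 247.9 UMIs of HF-SC markers per 10000 beside 8.04 and 17.9 of their own.

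The 6 type IV genes lie in 3 pairs of opposite direction. Col4a1 and Col4a2 overlap by 22 bases on chromosome 8, Col4a4 and Col4a3 lie 71 bases apart on chromosome 1, and Col4a6 and Col4a5 1308 bases apart on chromosome X. Col4a1, found in every basement membrane, was at 6.96, 7.18 and 7.91 CPM in IFE basal-like, 28.5, 37.3 and 20.8 in HF-SC-like and 59.4, 248 and 61.3 in HG-like cells. Its partner Col4a2 was at 3.80, 11.0 and 6.92, then 32.1, 40.5 and 18.9, then 64.3, 148 and 26.8. Both were thus lowest in IFE basal-like and highest in HG-like cells of the 3 classes in every library.

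Col4a6, whose product joins that of Col4a5 in epithelial basement membranes, was highest in IFE basal-like cells in each library, at 24.2, 22.6 and 22.1 CPM, while the HF-SC-like class had 13.5, 8.11 and 16.1. The difference did not pass (-1.11 ± 0.425, edgeR adjusted p = 0.0847). Col4a5 was at 25.3, 14.9 and 16.0 in IFE basal-like, 24.8, 20.3 and 16.1 in HF-SC-like and 32.5, 57.4 and 14.0 in HG-like cells. Col4a3 was at 1 UMI or fewer in IFE basal-like cells of each library and Col4a4 at 3, 0 and 3.

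The anchoring fibril chain Col7a1 was at 65.5, 67.9 and 57.3 CPM in IFE basal-like cells, and the HF-SC-like class had 86.7, 96.5 and 54.0 (0.10 ± 0.398, edgeR adjusted p = 0.956). In HG-like cells it was at 82.9 CPM at P38 and at 14.8 and 15.3 at 6 and 12 months. Fibroblast-like cells had 12.3 and 22.4 CPM and DP-like cells 31.0, below the IFE basal-like class of the same library.

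The type I and III chains were also counted at low levels outside the dermis. Their sum was 0.316, 4.42 and 19.4 CPM in IFE basal-like cells, against 35553 and 86775 in Fibroblast-like cells at 6 and 12 months, and 16.5 and 19.5 in T cell-like cells. In IFE basal-like cells it was lowest at P38, the library without Fibroblast-like cells, where it came from 2 Col1a1 UMIs. HF-SC-like cells had a sum of 11.5, 67.3 and 41.7 CPM in order of age. HG-like cells had 27.0, 7.40 and 40.9, so their lowest value was at 6 months. At 12 months Col1a1, Col1a2 and Col3a1 in IFE basal-like cells were at 7.03, 6.48 and 5.93 CPM, with 1.08 Col1a1 and 0.915 Col3a1 UMIs per Col1a2 UMI, and the 64 Col1a1 UMIs were spread over 56 of 677 cells. After thinning, 2.22% of those cells held a Col1a1 UMI, against 2.63% (1 of 38) of T cell-like cells, and the part of free RNA in these levels was not tested. Proliferating-like cells at 12 months had 108 CPM of Col1a1, 76.7 of Col1a2 and 65.1 of Col3a1, and that class was gated on cell cycle genes that cells of any type may use.

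Among IFE basal-like cells, 3 of 17 collagens with 20 UMIs were past 2-fold higher at 12 months than at P38, beside 11.7% of 11021 genes, and 2 past 2-fold lower, beside 8.74%. The 3 were Col1a1, Col1a2 and Col3a1, at the levels just given. They passed the minimum of 20 UMIs through the 12 months library, with 64, 59 and 54 UMIs. At P38 Col1a1 had 2 UMIs and Col1a2 and Col3a1 had none, so the ratios of Col1a2 and Col3a1 are bounds. The count of higher collagens therefore describes the genes that passed and not the family. The lower were Col5a2 (3.32 to 0.439 CPM) and Col6a1 (5.38 to 2.31), both low in this class. The collagens that the class is richest in stayed within 2-fold: Col17a1 had a log2 ratio of -0.34 (-0.38 to -0.29), Col7a1 of -0.19, Col18a1 of -0.07 (-0.33 to 0.19), Col12a1 of -0.20 (-0.59 to 0.20) and Col23a1 of -0.05 (-0.39 to 0.30). The 6 months library stood apart for Col23a1, at 84.0 CPM, and Col16a1, at 102 against 44.1 and 63.4. The median over all genes was 0.13.

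In HF-SC-like cells 2 of 17 collagens were past 2-fold higher at 12 months than at P38, beside 14.4% of 9887 genes, and 1 past 2-fold lower, beside 10.1%. Higher were Col4a4, from 4.79 to 21.8 CPM (2.18, 1.28 to 3.08), and Col1a2, from 4.17 to 21.8. Lower was Col5a2, from 62.7 to 26.5 CPM (-1.24, -1.86 to -0.68). Col18a1 (-0.97), Col6a1 (-0.91) and Col17a1 (-0.76, -0.86 to -0.67) lay under 2-fold. The median over all genes was 0.21 and 0.00 with median-of-ratios scaling, under which 3 collagens were past 2-fold lower. Age, cycle stage and library cannot be told apart in these ratios.

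Other classes are given as levels with no test. T cell-like cells had Col27a1, a fibrillar collagen, at 90.6 CPM at 6 months and 297 at 12 months (22 and 61 UMIs), carried by 11 of 52 and 21 of 40 cells. The next class at 12 months was DP-like at 29.7 CPM, and after thinning 16.3% and 50% of T cell-like cells held a UMI. Myeloid-like cells had Col16a1 at 43.4 and 112 CPM, and the 19 and 15 melanocyte-like cells of 6 and 12 months had Col12a1 at 274 and 309 CPM. Endothelial-like cells at 12 months had Col4a1 and Col4a2 at 199 and 169 CPM and Col15a1 at 169. Mural-like cells at 12 months were led by Col1a1 at 1215 CPM and by Col1a2 and Col3a1, each at 1044. Col6a3 at 607, Col6a1 at 562 and Col4a1 at 409 CPM followed, and Col14a1 was at 133. At 6 months 19 of 26 mural-like cells were at the limit of 3 markers and the class held 252 CPM of Col17a1.

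The 46 genes that modify, process, link, bind or cleave collagen were all measured. Between Fibroblast-like and IFE basal-like cells, 14 of 18 tested modification and folding genes rose and 1 fell, beside 20.6% of all genes higher and 13.7% lower. Serpinh1, the collagen chaperone, was at 1611 and 1963 CPM against 61.9 and 35.1 in the same libraries (5.06 ± 0.653), and P4hb, the β subunit of prolyl 4-hydroxylase, at 347 and 360 against 79.0 and 86.1 (2.02 ± 0.244). The one that fell was P3h2, a prolyl 3-hydroxylase of basement membrane collagen (-4.96 ± 0.730). All 5 lysyl oxidases rose, and 4 of 7 propeptide processing genes, with Adamts2, which removes the N-propeptide, at 630 and 716 CPM and Pcolce, an enhancer of C-propeptide removal, at 673 and 972. Of 7 receptors 3 rose and 2 fell: the fibroblast receptor Ddr2 rose by 7.67 ± 0.781 and its epithelial relative Ddr1 was lower (-2.41 ± 0.392), as was Itga2 (-3.79 ± 0.827). Among collagenases and gelatinases 4 of 6 rose, with Mmp2 at 872 and 1225 CPM and Mmp14 at 700 and 819.

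In HF-SC-like against IFE basal-like cells, 4 of 18 modification and folding genes rose and none fell, beside 7.97% and 5.96% of all genes. Serpinh1 was at 198, 332 and 125 CPM against 53.3, 61.9 and 35.1 (1.86 ± 0.548) and Fkbp10, a procollagen folding enzyme, at 15.2, 20.3 and 18.9 against at most 0.552 (6.05 ± 0.936). Mmp3, stromelysin, was lower in HF-SC-like cells (-8.20 ± 1.25). Leaving the basal layer, 4 of those 18 fell in IFE suprabasal-like cells and 1 rose, beside 5.49% and 6.55% of all genes, with Serpinh1 at -3.73 ± 0.666 and Plod1, a lysyl hydroxylase, at -4.14 ± 0.646. Itgb1 (-3.02 ± 0.301) and Itga2 (-4.14 ± 0.635), whose products pair as a collagen receptor, fell with them. In DP-like against Fibroblast-like cells at 12 months, 9 of 16 modification and folding genes were past 2-fold lower, beside 11.8% of all genes, and 2 higher, beside 20.1%.

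The remaining 17 of the 44 collagens stayed under 10 UMIs or 10 CPM in every class of 20 or more cells. They include Col2a1 and Col10a1, known from cartilage, and Col4a3, which reached 14.8 CPM but only from 8 UMIs. Col9a3 was at 9.95 CPM in Niche-like cells at P38 (13 UMIs) and Col20a1 at 4.02 CPM at most. A low count in a shallow class leaves room for a level below detection, and the floor of 3 UMIs corresponds to a higher CPM in a small class than in a large one. Gene models of Col24a1 and Col26a1 overlap another gene on the same strand, so their counts are uncertain.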

How the data were processed

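The deposited files hold counts of UMIs per gene and cell barcode, 1 matrix a library, which the authors made with Cell Ranger from 10x 3′ libraries against mm10; the submitters' notes name version 6.1.2, and the file headers 6.1.2 for P38 and 6.0.0 for 6 and 12 months. Cells were kept at over 200 and under 5000 genes and under 15% mitochondrial counts. Each was scored on 121 markers of 18 classes (120 were found) and placed where at least 3 markers were detected, the score was at least 0.5 and the lead over the next class at least 0.25. Cells near a tie were left out, no doublet caller was run and free RNA was not subtracted.

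UMIs were summed per class and library with at least 20 cells. Classes were compared with edgeR 4.0.16 (quasi-likelihood, library as a block, Benjamini-Hochberg over 14122 genes, threshold 0.05, 18 residual degrees of freedom). The SE of a fold is the size of its log2 value divided by the square root of the test's F statistic. It was thus derived from the test and not estimated separately. A run on simulated counts used 1 spread for all genes and small folds in genes of higher count. It therefore does not cover the low counts and large folds given here. The libraries differ in age, so the spread behind p-values is that between ages as well as between samples, and cells of a library are not replicates. Pairs with 1 library a group got a log2 ratio of CPM with a 95% interval, over genes with at least 20 UMIs, and were called past 2-fold. Intervals cover counting error only, and 3 UMIs stood in for 0. Shares of cells with a UMI were taken at 3000 UMIs per cell, leaving out shallower cells. Alternatives were DESeq2 1.42.0, other filters, scalings, gates, no block, each library left out and, chosen after seeing the data, no shared barcodes and no shallow 6 months sums. R 4.3.3, Python 3.11.15 and scipy 1.17.1 were used.

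Named were at most 12 collagens per class by mean CPM (10 UMIs and 10 CPM), at most 12 called per test by size, at most 10 past 2-fold per age comparison, and the type IV chains, Col1a1, Col1a2, Col3a1, Col7a1, Col12a1, Col17a1 and Col18a1 in epithelium. Of the collagen-handling lists at most 4 genes of highest mean CPM were to be named. Other genes, such as P3h2, Fkbp10, Plod1 and Col20a1, and other collagens given, were chosen after their values were seen. The members and lists were chosen with earlier results of these data known.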

Additional observations from a re-analysis of the deposited data

Results flagged for a closer look

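Barcodes that failed the cell filter and entered no comparison also held type I and III collagen. The summed level of Col1a1, Col1a2 and Col3a1 in them was 5.29 CPM at P38 (288 barcodes), 81.6 at 6 months (1259 barcodes) and 1280 at 12 months (2181 barcodes), which is above the level that a count of 0 allows. Collagens made up 0.0766%, 0.0566% and 0.225% of the UMIs of these barcodes in order of age. Kept cells that no class took held 11.2, 164 and 496 CPM of the same 3 genes.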

How the results depend on the processing

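No result reversed under any alternative run. Leaving out 1 library at a time gave 15 to 19 collagens higher and 2 to 3 lower in fibroblasts against IFE basal cells, 8 to 10 higher in HF-SC, 0 to 1 lower in HG and 5 to 8 lower in suprabasal cells. Without library as the replicate block, 17 collagens were higher in fibroblasts, 7 higher in HF-SC, 0 lower in HG and 5 lower in suprabasal cells. DESeq2 and the fit with no filter beyond 1 UMI each called 1 collagen lower in Niche against HF-SC. With no UMI minimum, 7 collagens were past 2-fold lower at 12 months in fibroblasts, 4 lower in IFE basal and 8 higher in HF-SC cells, and with median-of-ratios scaling 3 were lower in HF-SC. Requiring 4 markers gave collagen shares of 4.17% and 9.45% in fibroblasts at 6 and 12 months and 0.473% in DP cells. Except for the smaller number of samples when a library is left out, the cause was not tested. Without the barcodes shared between libraries no call was lost. Depth limits the small classes most, and with 1 library per age no age ratio has a replicate.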
